A study of Mus musculus with 24 samples.

Results

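The MYC, MAX and MXD network was followed here through 10 genes, taken by symbol as known members of the network: Myc, Mycn, Max, Mxd1, Mxd3, Mxd4, Mxi1, Mnt, Mlx and Mga. All 10 symbols stood in both RNA count tables, which list 24421 genes each. Their N6-methyladenosine (m6A) peaks and their open chromatin peaks were read from the peak lists of the same study.

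MYC and MYCN are transcription factors that bind DNA only as dimers with MAX and raise the expression of growth genes, above all those of ribosome production and metabolism. MXD1, MXD3, MXD4, MXI1 and MNT compete for MAX, bind the same E-box sequence and repress it by recruiting the SIN3 and histone deacetylase corepressor. MLX is a MAX-like partner of MondoA and of some MXD proteins, and MGA is a MAX partner of the PRC1.6 repressor complex. In CD8 T cells Myc is induced soon after antigen is met and drives growth and the switch to glycolysis. In melanoma cells it is a driver of proliferation. FTO is a demethylase that removes m6A, the most abundant internal mark of messenger RNA.

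The study used B16-OVA, a mouse melanoma line that expresses ovalbumin, kept under puromycin and carrying either a hairpin against Fto (shFto) or a control hairpin (shNC). RNA-seq of tumour cells covered 3 shFto and 3 shNC libraries. OT-I CD8 T cells, whose transgenic receptor sees an ovalbumin peptide, were isolated as naive cells, kept for 8 h with tumour cells of line shFto-1, shFto-2 or shNC in the presence of IL-2 and sorted, with 2 libraries for each line. The T cells themselves carried no hairpin. ATAC-seq, which marks open chromatin by transposase cuts, had 3 libraries of shFto and 3 of shNC tumour cells. For m6A-seq there was 1 peak list each from shFto cells given DMSO, from shNC cells given 5 µM Dac51 (a small-molecule FTO inhibitor) for 48 h, and from shNC cells given DMSO. For libraries made from tumour cells, the labels name no particular shFto line. Whether replicates stem from different cultures or mice is not labelled, so p-values reflect the scatter among the sequenced libraries alone and that scatter may be technical.

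Library totals ran from 11152404 to 19665589 counts in tumour cells and from 2628158 to 13066355 in T cells, the lowest being shNC replicate 1. Fto stood at 31.7, 33.5 and 28.3 CPM (counts scaled to the library's size) in shFto tumour libraries, against 107, 108 and 91.8 CPM in shNC tumour libraries (log2 fold change -1.72, edgeR adjusted p = 1.6e-10). In T cells Fto did not pass the test (0.09, edgeR adjusted p = 0.648). The 7 melanocyte markers summed to 17652 to 18255 CPM in shFto tumour libraries and 14414 to 15271 CPM in shNC tumour libraries, while 7 CD8 T cell markers summed to at most 7.14 CPM there. In T cell libraries the CD8 markers summed to 2679 to 3233 CPM beside shFto lines and 3644 to 3759 CPM beside shNC.

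The MYC and MAX dimer and the MXD and MAX dimers share the E-box CACGTG, a palindrome that reads the same on both strands. Promoter sequences were taken from RefSeq (GRCm38.p6, 250 bases before to 50 after each start site), which held 11 windows for Mycn, Max, Mxd1, Mxd3, Mxd4, Mxi1, Mnt, Mlx and Mga. Mxi1 gave 3 of these windows, not all free of overlap, and there was none for Myc. Of these 11 windows 4 (36.4%) held CACGTG, against 2349 of 32851 windows (7.15%) in the whole table. Among the 14253 windows with at least 55% G or C, as all 11 have, the share was 10.2%. With so few windows the share of 4 in 11 is not a result about the members. The matching stretches are shown because they hold the network's own recognition letters, which lie before the start site of Mxd4, Mnt and Mlx and across that of Max, with CACGTG in capitals and the rest of each stretch in lower case. A match is a description of letters and not a bound site.
Mxd4, minus strand, chr5:34187904-34187960, E-box starting 219 bases before the start site: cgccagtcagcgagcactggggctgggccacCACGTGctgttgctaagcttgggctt
Mnt, plus strand, chr11:74830721-74830826, E-box starting 123 bases before the start site: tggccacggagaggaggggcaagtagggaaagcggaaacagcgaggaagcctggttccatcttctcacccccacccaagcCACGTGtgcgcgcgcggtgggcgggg
Mlx, plus strand, chr11:101087170-101087275, E-box starting 40 bases before the start site: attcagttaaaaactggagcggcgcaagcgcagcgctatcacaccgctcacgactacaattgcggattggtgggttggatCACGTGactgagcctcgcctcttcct
Max, minus strand, chr12:76962226-76962331, E-box starting 3 bases before the start site: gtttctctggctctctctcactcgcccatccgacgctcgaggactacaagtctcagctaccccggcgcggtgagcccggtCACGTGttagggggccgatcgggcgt

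In T cells, 5 of the network's members changed with the tumour line they had met. Set against shNC co-cultures, the mean of the shFto-1 and shFto-2 co-cultures had more Myc, Mlx and Mga RNA and less Mxd4 and Mxi1 RNA. Of 9 members that passed the filter on low counts, 3 rose and 2 fell by edgeR's quasi-likelihood test with Benjamini-Hochberg adjustment over 12824 genes. Of all tested genes 32.9% were called, 20.3% higher and 12.7% lower. The count of 5 in 9 ran from 3 to 5 when 1 library was left out. With so few genes it is not a result about the members. Of the calls over all genes, 61.5% were higher, and 42.8% with scaling by library totals. That scaling put the log2 fold change of the median gene at -0.18, against -0.01. The 3 groups of libraries were fitted together, and the comparisons of each line share the shNC libraries.

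Myc, the activator of the network, measured 1140 and 1170 CPM in the shFto-1 co-cultures, 1184 and 1248 CPM in the shFto-2 co-cultures, and 844 and 716 CPM in the shNC co-cultures. All 4 libraries beside shFto lines lay above both shNC libraries. The log2 fold change of the mean of both lines was 0.61 (SE 0.087, edgeR adjusted p = 0.000504), and it was 0.57 for shFto-1 (edgeR adjusted p = 0.00297) and 0.64 for shFto-2 (edgeR adjusted p = 0.000656). With library totals the change of the mean was 0.44 and still passed (edgeR adjusted p = 0.00345).

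Mycn, the second activator, was close to undetected, with 6 and 6 counts in the shFto-1 co-cultures, 6 and 0 in the shFto-2 co-cultures, and 6 and 11 in the shNC co-cultures. It did not pass the test (edgeR adjusted p = 0.462), and counts this low carry no usable fold change.

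Max, the shared dimer partner, measured 127 and 138 CPM in the shFto-1 co-cultures, 138 and 131 CPM in the shFto-2 co-cultures, and 109 and 123 CPM in the shNC co-cultures. The groups did not overlap, but the gap between the highest shNC library and the lowest library beside an shFto line was smaller than the spread within groups. The log2 fold change of 0.19 did not pass (SE 0.096, edgeR adjusted p = 0.169).

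Mxi1, a repressor that competes for MAX, measured 46.1 and 53.1 CPM in the shFto-1 co-cultures, 38.3 and 31.2 CPM in the shFto-2 co-cultures, and 67.5 and 77.2 CPM in the shNC co-cultures. The 3 groups were fully separated, with shFto-2 lowest. Mxi1 fell, with a log2 fold change of -0.81 for the mean of both lines (SE 0.127, edgeR adjusted p = 0.000807), -0.57 for shFto-1 (edgeR adjusted p = 0.0214) and -1.06 for shFto-2 (edgeR adjusted p = 0.000438).

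Mxd4, a repressor found mainly in resting and differentiating cells, measured 8.91 and 10.3 CPM in the shFto-1 co-cultures, 7.98 and 5.90 CPM in the shFto-2 co-cultures, and 27.5 and 18.3 CPM in the shNC co-cultures. Every library beside an shFto line lay below both shNC libraries, on 37 to 131 counts each. Its log2 fold change of -1.46 was the lowest among the called members (SE 0.239, edgeR adjusted p = 0.00106), with -1.24 for shFto-1 (edgeR adjusted p = 0.0117) and -1.68 for shFto-2 (edgeR adjusted p = 0.00136). Both Mxd4 and Mxi1 passed for the mean of the lines without any 1 of the 6 libraries. For shFto-1 alone, Mxd4 did not pass without shFto-1 replicate 1 or shNC replicate 1 (highest edgeR adjusted p = 0.0895), and Mxi1 did not pass without shFto-1 replicate 1 or shNC replicate 2 (highest 0.206).

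Mxd1, the founding MXD repressor, measured 124 and 91.0 CPM in the shFto-1 co-cultures, 97.2 and 60.7 CPM in the shFto-2 co-cultures, and 113 and 120 CPM in the shNC co-cultures. The libraries beside each shFto line spread widely, and shFto-1 overlapped shNC. The mean of the lines did not pass (log2 fold change -0.33, SE 0.182, edgeR adjusted p = 0.199), but it did with library totals (0.0499), with no filter (0.0121) and without shFto-2 replicate 1 (0.00788). Beside shFto-2 the change was -0.56 (edgeR adjusted p = 0.0704), and it passed with library totals (0.0201), with no filter (0.000163), with the libraries blocked by replicate number (0.0157), without shFto-1 replicate 2 (0.041) and without shFto-2 replicate 1 (0.00156). Mxd1 also passed in both comparisons with a block in which the shNC replicate numbers were crossed, an alternative added after seeing the data.

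Mnt, a widely expressed MAX-bound repressor, measured 95.6 and 77.4 CPM in the shFto-1 co-cultures, 87.1 and 82.9 CPM in the shFto-2 co-cultures, and 80 and 65.4 CPM in the shNC co-cultures. Beside shFto-2 both libraries lay above shNC, while shFto-1 overlapped shNC, and the log2 fold change of 0.26 for the mean did not pass (SE 0.127, edgeR adjusted p = 0.149).

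Mxd3 was listed at 0 in all 6 T cell libraries, though it had 53.8 to 66.5 CPM in the 6 tumour libraries. It was 1 of 15 such genes among the 6405 that averaged at least 30 CPM, here by library totals, in tumour cells. The reason for the 0 was not tested. T cell libraries also held tumour RNA, with the summed melanocyte markers at 6.51% to 8.30% of the tumour level. The listed 0 is thus not read as absence of Mxd3 RNA, and no fold change is given for Mxd3 in T cells. Mxd3 overlaps the gene Prelid1 on the annotation.

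Mlx, the MAX-like partner of MondoA, measured 41.0 and 35.7 CPM in the shFto-1 co-cultures, 37.0 and 34.8 CPM in the shFto-2 co-cultures, and 28.2 and 25.7 CPM in the shNC co-cultures. All 4 libraries beside shFto lines lay above both shNC libraries. The log2 fold change was 0.48 for the mean (SE 0.133, edgeR adjusted p = 0.0196), 0.53 for shFto-1 (edgeR adjusted p = 0.0297) and 0.43 for shFto-2 (edgeR adjusted p = 0.0528). The shFto-1 call was lost under 7 of 12 alternatives, with library totals (0.109), RLE size factors (0.0546) and DESeq2 (0.0569) and without shFto-1 replicate 1 (0.213), shFto-1 replicate 2 (0.0572), shNC replicate 1 (0.0591) or shNC replicate 2 (0.143). The call for the mean was lost with library totals (0.31, edgeR adjusted p = 0.0991) and without shFto-1 replicate 1 (0.0589), shFto-2 replicate 1 (0.0673) or shNC replicate 2 (0.137). Mlx overlaps the protein-coding gene Psmc3ip, and how reads of the overlap were assigned is not stated.

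Mga, the scaffold of PRC1.6, measured 233 and 306 CPM in the shFto-1 co-cultures, 341 and 348 CPM in the shFto-2 co-cultures, and 239 and 234 CPM in the shNC co-cultures. Only the shFto-2 libraries stood clear of shNC, since shFto-1 replicate 1 lay at the shNC level. The log2 fold change was 0.37 for the mean (SE 0.112, edgeR adjusted p = 0.0302), 0.19 for shFto-1 (edgeR adjusted p = 0.36) and 0.54 for shFto-2 (edgeR adjusted p = 0.00753). The call for the mean was lost with library totals (0.20, edgeR adjusted p = 0.254), with RLE size factors (0.0761) and without shFto-1 replicate 2 (0.0857), shFto-2 replicate 2 (0.0547), shNC replicate 1 (0.119) or shNC replicate 2 (0.0933). The shFto-2 call was lost with library totals (0.37, edgeR adjusted p = 0.064).

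**Figure D1:**
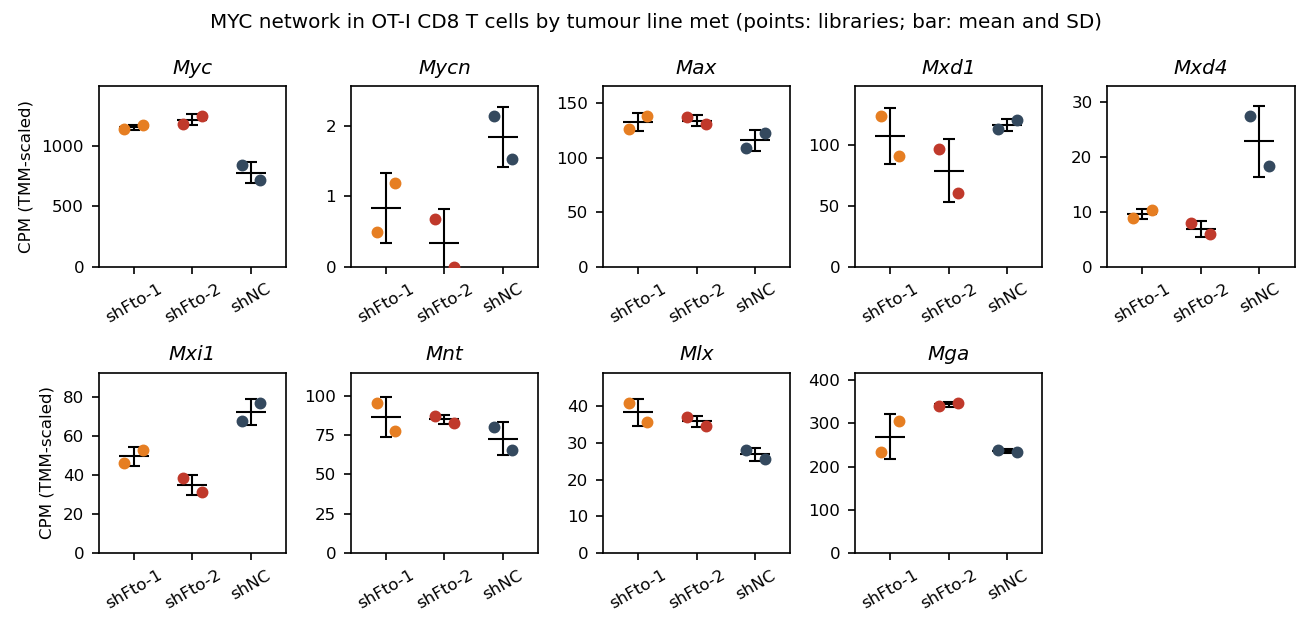
CPM of 9 members in OT-I CD8 T cells after co-culture with line shFto-1, shFto-2 or shNC, with 1 point per library and a bar for the mean and SD of 2 libraries; the vertical axis of each panel starts at 0. Myc and Mlx lie higher and Mxd4 and Mxi1 lower in all 4 libraries beside shFto lines than in both shNC libraries, and Mycn stays near 0.

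Taken line by line, 4 members were called beside shFto-1 (Myc, Mlx, Mxd4 and Mxi1), where 22.2% of genes were called, and 4 beside shFto-2 (Myc, Mga, Mxd4 and Mxi1), where 33.7% were called. That Mlx and Mga each passed beside 1 line does not show that the lines differ. Set against shFto-1 directly, shFto-2 co-cultures had no called member by edgeR, where 245 genes (1.91%) were called. At an unadjusted p under 0.05 there were 2 members, Mxi1 (-0.49, edgeR adjusted p = 0.123) and Mga (0.36, edgeR adjusted p = 0.175), and DESeq2 called both (adjusted p = 0.0403 for Mxi1 and 0.0226 for Mga). For Myc the difference between the lines was 0.07 (SE 0.097).

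T cell libraries held tumour RNA, and other markers moved with the groups. All 7 melanocyte markers had counts in every T cell library, and their summed CPM came to 7.53% and 8.06% of the shFto tumour level beside shFto-1, 7.08% and 7.97% of it beside shFto-2, and 6.51% and 8.30% of the shNC tumour level beside shNC. Single markers ran from 4.59% to 14.5% of the tumour level beside shFto lines and from 1.33% to 16.8% beside shNC. The sums thus do not give 1 even share of tumour RNA. Of the 7 markers 3 were higher for the mean of the shFto lines (Pmel, Tyrp1 and Tyr). None were lower, and Dct, Mlana, Mitf and Sox10 did not pass. Beside shFto-2 alone Mlana was lower, at 95.4 CPM against 139.9 CPM beside shNC (log2 fold change -0.56, edgeR adjusted p = 0.0027). Of 7 CD8 markers 6 were lower, among them Cd8a (log2 fold change -0.43) and Cd8b1 (-0.55), edgeR adjusted p = 0.00368 and 0.000742. The 5 markers of fibroblasts and endothelium summed to 70.5 to 71.7 CPM after shFto-1, 31.1 to 51.1 CPM after shFto-2 and 120 to 149 CPM after shNC co-culture. Nearly all of that sum was Pecam1, which T cells also express and which averaged 70.4 CPM after shFto-1, 38.7 CPM after shFto-2 and 127 CPM after shNC co-culture, while the other 4 averaged at most 3.53 CPM. Markers of myeloid cells, B cells, NK cells and CD4 T cells summed to at most 9.29 CPM each. The part of these markers in the members' changes was not tested. In bulk libraries fewer cells of a type and less RNA per cell cannot be told apart.

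The genes around the network are set beside all tested genes in T cells, of which 20.3% were called higher and 12.7% lower. Of 34 genes that MYC is known to activate, 34 rose beside shFto lines and 0 fell, with log2 fold changes from 0.49 to 1.64 and a median of 1.09, beside a median of -0.01 for all genes. The list was drawn up with earlier results of these data known, so its count is not independent evidence of its direction. Ncl, which encodes the nucleolar protein nucleolin, averaged 9734 ± 260 CPM after shFto-1, 12815 ± 492 CPM after shFto-2 and 4791 ± 86.3 CPM after shNC co-culture (SD, n = 2 each; log2 fold change 1.22, edgeR adjusted p = 1.75e-05). Shmt2, the mitochondrial serine hydroxymethyltransferase of folate metabolism, averaged 327 CPM after shFto-1, 401 CPM after shFto-2 and 132 CPM after shNC co-culture (log2 fold change 1.46, edgeR adjusted p = 2.39e-05). Npm1, the ribosome assembly factor nucleophosmin, had a log2 fold change of 1.13 (edgeR adjusted p = 2.84e-05). All 34 rose beside each line on its own, with medians of 0.94 for shFto-1, where 32 passed with library totals, and 1.25 for shFto-2. Without any 1 library 34 still rose for the mean of the lines, and so they did with library totals, RLE size factors, no filter, DESeq2 and the replicate block. Between the lines, 4 of the 34 were higher beside shFto-2 than beside shFto-1, a count that ran from 0 without shFto-1 replicate 1 or shFto-2 replicate 2 to 19 with DESeq2.

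The MYC-repressed list gave fewer calls in T cells, with 1 of 5 tested genes lower and 0 higher, beside 12.7% and 20.3% of all genes. That gene was Cdkn1b, which encodes the cell-cycle inhibitor p27 (log2 fold change -1.22, edgeR adjusted p = 7.42e-05). Ndrg2 and Ndrg1, the next by adjusted p, did not pass.

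Of 21 cofactors and stability factors of MYC, 7 rose and 2 fell, beside 20.3% and 12.7% of all tested genes. Their median was 0.23. Ruvbl1 (1.41) and Ruvbl2 (1.34), the paired ATPases of chromatin complexes that MYC recruits, rose, and so did Usp36 (0.89), a nucleolar deubiquitinase that stabilises MYC (edgeR adjusted p = 2.84e-05, 3.39e-05 and 8.48e-05). Of 16 genes of the SIN3 and histone deacetylase corepressor that MXD proteins recruit, 4 rose, 6 fell and 6 did not pass. Sap30 (1.10) and Hdac2 (0.76) rose and Arid4a (-0.93) fell (edgeR adjusted p = 5.93e-05, 0.00015 and 6.1e-05).

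Against 20.3% and 12.7% of all tested genes, 4 of 9 MGA partners in PRC1.6 rose and 0 fell, with a median of 0.37. They included Tfdp1 (1.26) and E2f6 (0.89), the E2F-family DNA-binding arm of the complex, and Pcgf6 (0.85), its Polycomb ring-finger subunit (edgeR adjusted p = 5.39e-05, 0.00073 and 0.000953). On the MLX side, 1 of 3 tested genes fell. Txnip, a glucose-uptake inhibitor that MondoA and MLX activate, averaged 144 ± 28.6 CPM after shFto-1, 78.5 ± 17.7 CPM after shFto-2 and 288 ± 9.62 CPM after shNC co-culture (SD, n = 2 each; log2 fold change -1.43, edgeR adjusted p = 6.6e-05). Mlxip, which encodes MondoA, was at -0.10 and did not pass (edgeR adjusted p = 0.397).

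In tumour cells, the log2 fold changes of the tested members after Fto knockdown ran from -0.28 (Mxi1) to 0.27 (Mxd1). Of 9 members tested, 0 rose and 1 fell, while 32.8% of 11718 tested genes were called, 15.9% higher and 16.9% lower. Of the calls 48.5% were higher, and 60% with library totals. CPM ranges did not overlap between the groups for 2 of the 9 members, Mxi1 and Mxd1, against 45.1% of all tested genes. In T cells, for the mean of the lines, they did not overlap for 6 of 9 (Myc, Mycn, Max, Mxd4, Mxi1 and Mlx), against 51.1%. Of these, Max and the barely detected Mycn did not pass the test. With so few genes these counts are not a result about the members, and not passing does not show that RNA stayed level.

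Mxi1 was the member called, with 40.7, 44.7 and 39.5 CPM in shFto libraries against 48.3, 51.8 and 50.8 CPM in shNC libraries. The groups were separate, by less than the range within the shFto libraries. Mxi1 fell by 0.28 on the log2 scale (SE 0.095, edgeR adjusted p = 0.0302). The call did not hold with library totals (-0.22, edgeR adjusted p = 0.0851), nor without shFto replicate 1 (0.128), shFto replicate 3 (0.0606), shNC replicate 1 (0.0592), shNC replicate 2 (0.101) or shNC replicate 3 (0.064).

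Myc had 206, 189 and 228 CPM in shFto tumour libraries, against 228, 223 and 217 CPM in shNC tumour libraries. The groups overlapped, and the log2 fold change of -0.10 did not pass (SE 0.083, edgeR adjusted p = 0.372). Mycn had 2, 0 and 0 counts in shFto libraries and 0, 1 and 1 counts in shNC libraries, under the filter. Max had 99.5, 106 and 102 CPM in shFto libraries and 103, 109 and 108 CPM in shNC libraries (-0.06, edgeR adjusted p = 0.567).

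Mxd1 had 23.7, 21.3 and 21.8 CPM in shFto tumour libraries, against 20.7, 15.3 and 19.5 CPM in shNC tumour libraries. The groups did not overlap, and the log2 fold change of 0.27 did not pass (SE 0.131, edgeR adjusted p = 0.114). Mxd3, a repressor known from dividing cells, averaged 57.5 ± 3.97 CPM in shFto libraries and 63.5 ± 2.69 CPM in shNC libraries (SD, n = 3 each; -0.14, edgeR adjusted p = 0.242). Mxd4 averaged 11.9 ± 1.72 CPM in shFto libraries and 13.8 ± 0.894 CPM in shNC libraries (SD, n = 3 each; -0.21, edgeR adjusted p = 0.309). Mnt, Mlx and Mga had log2 fold changes of 0.15, -0.17 and 0.04, with edgeR adjusted p of 0.237, 0.185 and 0.78.

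**Figure D2:**
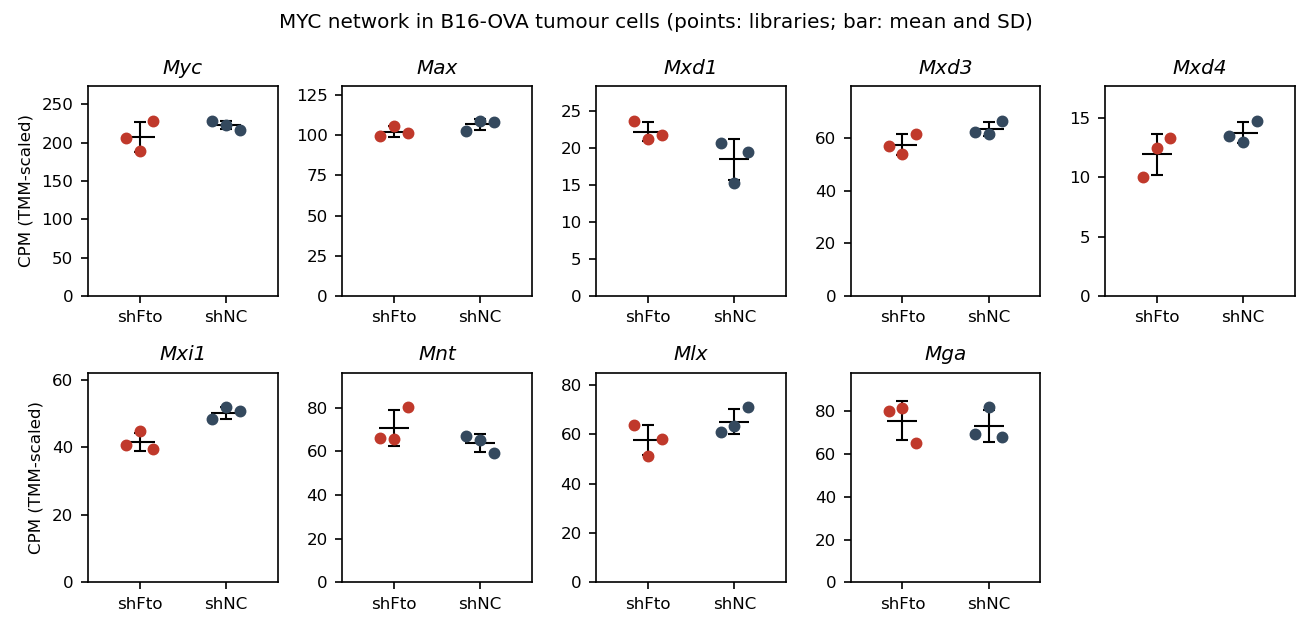
CPM of 9 members in B16-OVA tumour cells, shFto left and shNC right, with 1 point per library and a bar for the mean and SD of 3 libraries; the vertical axis of each panel starts at 0. CPM ranges overlap in all panels but those of Mxd1 and Mxi1, and of the members only Mxi1, with 39.5 to 44.7 CPM in shFto and 48.3 to 51.8 CPM in shNC libraries, passed the test.

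Around the network, tumour cells had calls in both directions, as they had among all tested genes (15.9% higher and 16.9% lower). Of the 34 MYC-activated genes, 3 rose, 11 fell and 20 did not pass, with a median log2 fold change of -0.09. Ldha, a glycolytic enzyme, averaged 1389 ± 103 CPM in shFto libraries and 2098 ± 278 CPM in shNC libraries (SD, n = 3 each; -0.59, edgeR adjusted p = 0.000152). Odc1, the first enzyme of polyamine synthesis (-0.49), and Fbl, the nucleolar methyltransferase fibrillarin (-0.48), fell as well (edgeR adjusted p = 0.000294 and 0.000326). The count of genes that fell was 7 with library totals, 6 without shFto replicate 1 and 6 without shNC replicate 1.

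Of the 21 cofactors and stability factors, 1 rose and 9 fell in tumour cells, beside 15.9% and 16.9% of all tested genes. Their median was -0.23. The gene that rose was Gsk3b (0.63), the kinase that marks MYC for degradation, and Ruvbl2 (-0.50) was among those that fell (edgeR adjusted p = 5.16e-05 and 6.94e-05). Of the 16 corepressor genes 1 rose and 5 fell, among them Suds3 (-0.50), Brms1 (-0.39) and Sin3b (-0.37), with edgeR adjusted p of 0.000286, 0.00169 and 0.0025. Of the 9 PRC1.6 genes 2 rose and 0 fell. They were Rnf2 (0.57), the ubiquitin ligase of PRC1, and Cbx3 (0.21), a heterochromatin protein (edgeR adjusted p = 0.000384 and 0.0438), and E2f6 (0.22) had an edgeR adjusted p of 0.05005. Txnip fell (-0.36, edgeR adjusted p = 0.00336). Of 5 tested MYC-repressed genes, 0 passed.

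**Figure D3:**
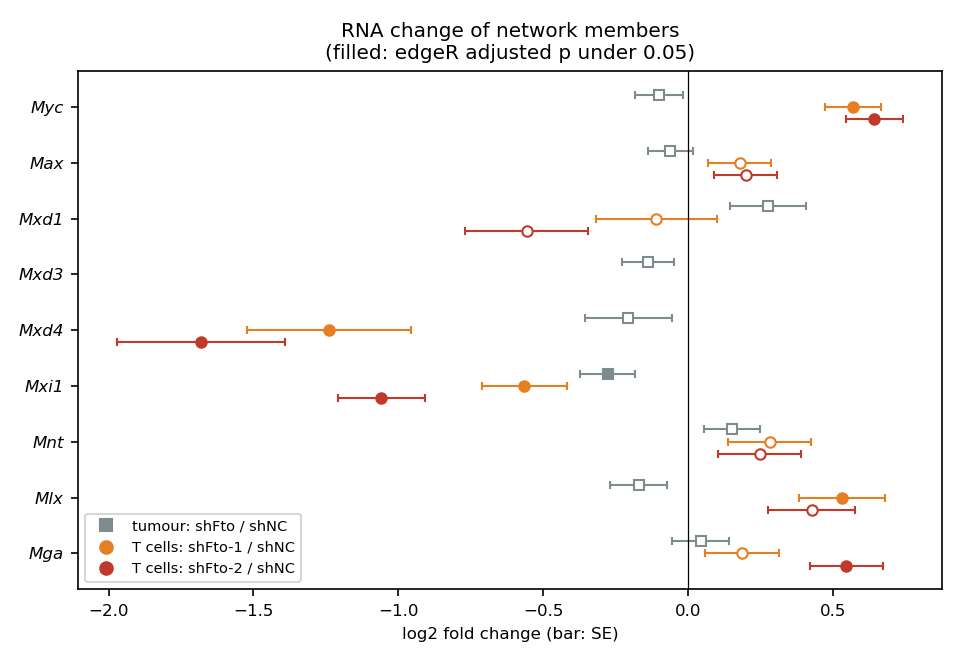
Log2 fold changes of 9 members with their SE, for shFto against shNC tumour cells (squares) and for T cells beside shFto-1 or shFto-2 against shNC (circles), with filled marks for an edgeR adjusted p under 0.05. The T cell circles for Myc lie at 0.57 and 0.64 and those for Mxd4 at -1.24 and -1.68, while the tumour squares stay between -0.28 and 0.27.

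**Figure D4:**
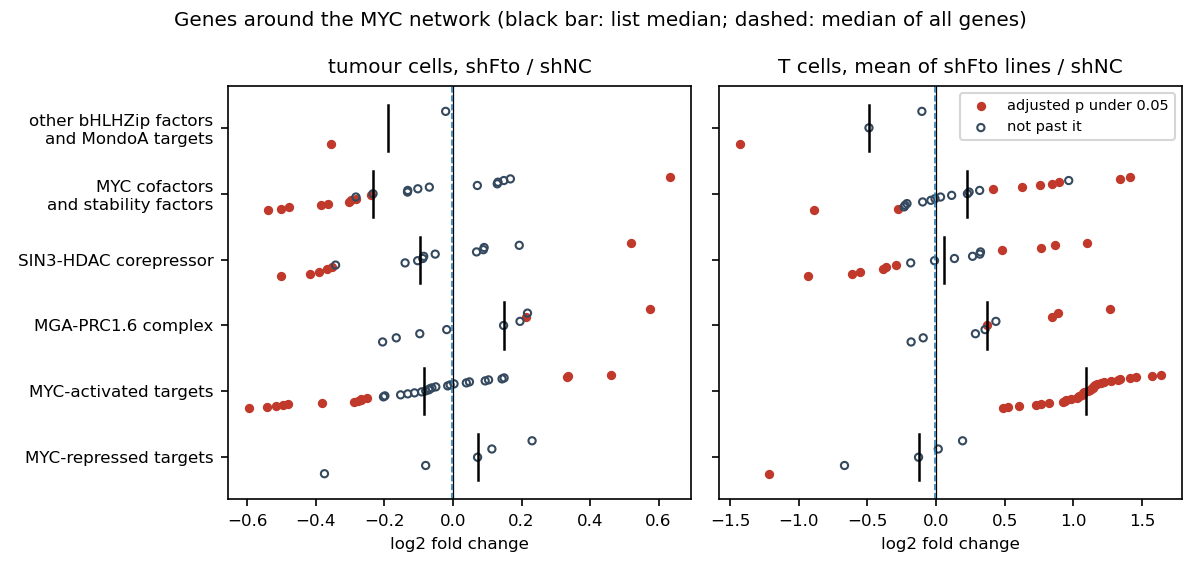
Log2 fold change of each tested gene in 6 lists around the network, in tumour cells (left, shFto over shNC) and in T cells (right, mean of both shFto lines over shNC), red where the edgeR adjusted p is under 0.05, with a black bar for the list's median and a dashed line for the median of all genes. The 34 MYC-activated genes all lie above 0 in T cells, between 0.49 and 1.64, and lie on both sides of 0 in tumour cells.

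The genes whose levels followed Myc most closely were Ppif (Pearson's r = 0.986), Surf6 (0.984), Dhx37 (0.984), Adprhl2 (0.983) and Aldh18a1 (0.978). The measure was the correlation of log2 CPM over the 12 RNA libraries, with each table centred on its own mean, among 10636 genes tested in both tables. The libraries of a group share their condition, so this is a description, and 471 genes (4.44%) reached an r over 0.9. Of the members, Mlx was at 0.815, Mnt at 0.61, Max at 0.609 and Mga at 0.523. Mxd1 was at -0.555, Mxd4 at -0.776 and Mxi1 at -0.79. These values follow the T cell libraries. Over the 6 T cell libraries alone r was -0.872 for Mxd4, -0.899 for Mxi1 and 0.733 for Mga, and over the 6 tumour libraries alone it had the other sign, at 0.447, 0.195 and -0.637.

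In the m6A lists, 7 of the 10 members carried a peak in at least 1 condition. Peaks were listed for 6 members in shFto cells (15 peaks), 7 in Dac51-treated cells (18 peaks) and 5 in shNC cells (11 peaks). Of the genes tested in tumour RNA, 53.6%, 49.9% and 44.2% had a peak in these 3 lists, which hold 10811, 9850 and 8479 peaks. Mycn, Mxd3 and Mlx had none. Each condition is 1 list from 1 antibody library and its input, so no difference between lists was tested. Fold enrichments below are the peak caller's values. For each named region that is in all 3 lists, their rank within the list is given because the lists differ throughout. In the 6598 regions that all 3 lists share, the median fold was 9.05 in shFto, 8.405 in Dac51 and 5.63 in shNC cells.

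Myc carried its main peak near the 3′ end of the gene, with the middle of the peak about 90% of the way along the locus. It spanned chr15:61989522-61990211 in shFto cells (mm10, plus strand) with a fold enrichment of 35, above 95.6% of that list. In Dac51-treated cells it spanned chr15:61989462-61990181 with a fold of 40.3, above 96.4% of the list. In shNC cells it spanned chr15:61989492-61990181 with a fold of 14.6, above 85.4% of the list. A weaker peak in the first 10th of the locus had folds of 2.18, 2.06 and 1.59 in shFto, Dac51 and shNC cells. These were above 13.3%, 11.8% and 3.98% of their lists. A mid-gene peak (1.62) stood in the Dac51 list alone.

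Max had 1 region in all 3 lists, 1002 bases from the 3′ end of the gene at its middle. Its folds were 11.4 in shFto, 7.06 in Dac51 and 3.31 in shNC cells, above 69.8%, 57.2% and 31.6% of their lists.

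Among the repressors, Mnt had a region in all 3 lists (folds 5.41 in shFto, 3.99 in Dac51 and 2.77 in shNC cells). These were above 45.3%, 37.2% and 24.2% of their lists. A second Mnt region lay 193 bases into the gene at its middle in shFto cells (3.67), was listed in Dac51 cells (2.26) and had no peak in shNC cells. Mxd1 had a region that was split over exons, with folds of 2.73 in shFto, 7.6 in Dac51 and 2.28 in shNC cells. These were above 21.5%, 59.5% and 16.4% of their lists. A further Mxd1 region (2.4) stood in the Dac51 list alone. Mxi1 had 2 regions in shFto cells (2.42 and 1.95), the first of which was also in the Dac51 list (1.47), and none in shNC cells. Mxd4 had 1 peak, in Dac51 cells (2.07). Folds of this size ranked in the lowest 5th of their lists for Mxi1 and Mxd4, between 2.28% and 17.2%.

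Mga, whose locus spans 97627 bases, held 8 of the members' 19 merged regions, 5 of them in all 3 lists. Its strongest lay about 94% of the way along the locus, with folds of 38.9 in shFto, 26.0 in Dac51 and 14.1 in shNC cells, above 96.5%, 91.2% and 84.0% of their lists. Another region had folds of 30.1 in shFto, 5.7 in Dac51 and 5.02 in shNC cells, above 93.7%, 49.7% and 49.7% of their lists. There were 2 Mga regions in the shFto and Dac51 lists only (4 and 3.68, and 8.14 and 4.93), and 1 in the shNC list only (2.5).

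Over the network, 10 of 19 merged regions (52.6%) were in all 3 lists, and 52.5% of the 12574 merged regions of all genes were. Mxd4 and Mxi1, 2 of 10 members, had a peak in shFto or Dac51 cells and none in shNC cells, as did 14.8% of tested genes. By region, 8 of the members' 19 (42.1%) were in the shFto or Dac51 list and not in the shNC list, and 37.3% of all merged regions were. With so few regions these shares are not a result about the members.

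**Figure D5:**
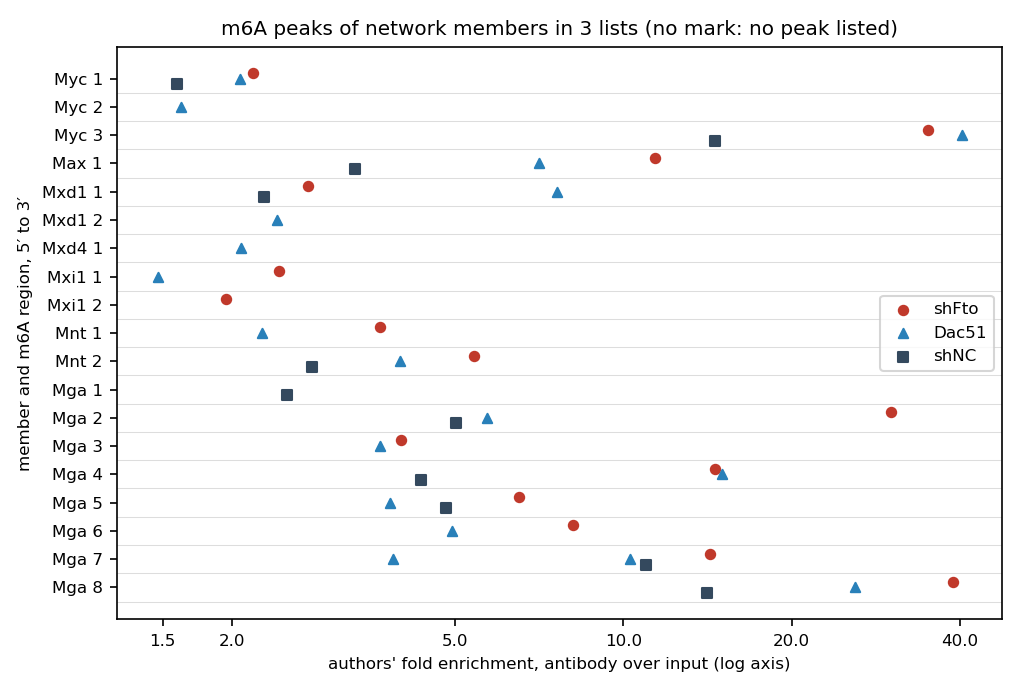
Fold enrichment of antibody over input, as the peak caller gave it, for each m6A region of the 7 members with peaks, on a log axis, with regions numbered along each gene from 5′ to 3′ and 1 mark per peak for shFto, Dac51 and shNC cells. The third Myc region reaches 35, 40.3 and 14.6, the last Mga region 38.9, 26.0 and 14.1, and regions without a square have no peak in the shNC list.

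The presence and number of open chromatin peaks at the network did not separate the groups of tumour cells. All 10 members had an ATAC peak within 1 kb of a start site in each of the 3 shFto and 3 shNC libraries, as did 92.8% of 8950 genes tested. Lists were first cut to the length of the shortest, 67427 peaks. Over the 10 genes, each with 1 kb on either side, the libraries held 33, 34 and 29 peaks in shFto cells and 33, 33 and 29 peaks in shNC cells. The difference of 0.333 peaks was within the spread of the libraries (2-sided exact permutation test, p = 1.0, where 0.1 is the smallest p that 3 against 3 allows).

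By member, Myc had 4 peaks in each of the 6 libraries, and Mycn, Mxd4 and Mlx had 1 in each. Mxi1, which has 3 start sites in the table, had 10, 11 and 6 peaks in shFto libraries against 9, 11 and 9 peaks in shNC libraries. Mnt had 4, 5 and 6 peaks in shFto libraries and 4, 5 and 4 peaks in shNC libraries. Peak numbers failed to overlap between groups for 0 of the 10 members, against 4.34% of genes. Of all 88084 merged regions 56.4% were in all 6 libraries, 0.879% in all 3 shFto libraries and no shNC library, and 1.66% in all 3 shNC libraries and no shFto library. No region of a member was of either of these last kinds. Presence and number say little of peak strength. The caller's fold enrichment of the strongest promoter peak, a value within each library's own list, was 9.12, 9.16 and 8.24 at Mlx in shFto libraries and 10.8, 11.03 and 10.6 in shNC libraries. At Max it was 25.03, 25.11 and 25.04 in shFto libraries and 27.1, 25.7 and 26.5 in shNC libraries. At Mga it was 14.1, 14.9 and 17.5 in shFto libraries and 13.9, 11.02 and 12.9 in shNC libraries. These are the 3 of 10 members whose folds do not overlap between the groups, named after their values were seen. Of 8308 genes with a promoter peak in all 6 libraries, 20.2% had folds that do not overlap. A difference in peak strength was not tested, since folds from separate lists have no common scale. Mycn thus had a promoter peak in all 6 libraries while its RNA had at most 2 counts in any tumour library.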

How the data were processed

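Samples were grouped from their labels. Reads were processed by the submitters with tools that include Trim Galore 0.6.0, STAR 2.7.0f, Bowtie2 2.3.5 and MACS2 2.1.3 on mm10, per the submitters' processing notes. The counting tool, its strand setting and the annotation are not given in the sources used here. Each RNA table, as deposited, holds raw counts per gene symbol, per the file headers. The deposited m6A lists (exomePeak, per the names in the deposited file list) give a p-value and a fold enrichment ratio per peak, plus p and FDR as log10 scores. Each deposited ATAC list, made from a single library, holds a score, a fold enrichment ratio, and −log10 of p and q by peak.

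The RNA comparisons used the quasi-likelihood test of edgeR 4.0.16 under R 4.3.3, on TMM-scaled libraries and on genes past its own expression filter (p adjusted by Benjamini-Hochberg across the whole table, threshold 0.05), tumour and T cell libraries apart. CPM are TMM-scaled. DESeq2 1.42.0, other scalings, no filter, a replicate block and leaving out each library were alternatives. The common biological coefficient of variation was 0.0906 in tumour and 0.199 in T cells. Replicate pairs differed by more than sampling noise. Peaks were merged with an overlap of 1 bp (Python 3.11.15, SciPy 1.17.1). For m6A, members' peaks were merged by overlap of their exon blocks, and those of all genes by overlap of their whole spans. The ATAC window was 1 kb either side of a start site. Gene starts and overlaps came from RefSeq (GRCm38.p6). Code was tested on simulated data.

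Named genes are the 10 members, Fto, up to 3 genes of each list by smallest adjusted p in tumour cells and in the mean T cell comparison, and the 5 genes most like Myc; markers named beside the T cell results were chosen after their values were seen. One gene that this rule names is not reported here. Members and lists were chosen with earlier results of these data known. Levels of different genes were not compared, since counts are not per length. The reads behind the m6A and ATAC lists are not counted here, so their depth is unknown.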

Additional observations from a re-analysis of the deposited data

How the results depend on the processing

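No member's called change reversed under any alternative. The tumour count of 1 called member became 0 with library totals and ran from 0 to 1 when 1 library was left out. In T cells the count of 5 for the mean of the lines ran from 3 to 5 without 1 library, that of 4 for shFto-1 from 1 to 4 and that of 4 for shFto-2 from 4 to 5. Between the lines 0 members were called, against 3 with no filter, 2 with DESeq2 and 0 to 1 without 1 library. Over all genes, the 245 called between the lines became 147 with RLE size factors, 838 with no filter and 1008 with DESeq2, and the lowest counts without 1 library were 2468 in tumour cells (without shFto replicate 1, against 3841), 1587 for shFto-1 (without its replicate 1, against 2853) and 1 between the lines (without shFto-1 replicate 1). In T cells the median gene stood at -0.15 (log2) with DESeq2. With ATAC lists as deposited the difference in peaks over the members was -3 (exact permutation p = 0.5); those lists run from 67427 to 81944 peaks. The cause of these moves was not tested. The counts of MYC-activated genes under the alternatives were added after seeing the data.

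Replicate numbers are shared between groups, but the labels tie them to no culture or day. Same-numbered tumour libraries deviated together with r of 0.014, 0.0365 and -0.017, and differently numbered ones with r from -0.0631 to 0.0464. Of the shFto libraries, replicates 1 and 2 correlated best with shNC of their own number, and replicate 3 with shNC replicate 1. Values this small do not show a pairing. With a replicate block 1 member (Mxi1) was called in tumour cells, 5 in the mean of the lines, 4 for shFto-1, 5 for shFto-2, where Mxd1 passed, and 0 between the lines, where 446 genes were called. In T cells r was 0.368 between the lines and -0.324 and -0.206 against shNC. With 2 libraries a group, crossing the numbers only turns the sign of r, so these values cannot show a pairing. A block with the shNC numbers crossed, added after seeing the data, called 6, 4, 5 and 0 members. Depth limits Mycn, and 2 libraries a group limit all T cell estimates.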
